A study of Mus musculus with 24 samples.

Results

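The genes of the respiratory chain were taken from the count table by their mouse symbols: the subunits and assembly factors of complex I (NADH dehydrogenase) whose symbols start with Nduf, the 4 subunits of complex II (succinate dehydrogenase), the Uqcr subunits of complex III (cytochrome bc1), the Cox4 to Cox8 subunits of complex IV (cytochrome c oxidase), the Atp5 subunits of complex V (ATP synthase), cytochrome c (Cycs) and the coding genes of the mitochondrial genome. The pattern matched 118 of the 45706 genes in the table. After 11 annotated pseudogenes were left out, 107 genes remained, 94 in the nucleus and 13 on the mitochondrial chromosome. The nuclear genes were 36 subunits and 8 assembly factors of complex I, 4 subunits of complex II, 8 of complex III, 20 of complex IV, 17 of complex V, and Cycs. Ndufa4 and Ndufa4l2 also start with Nduf but were counted in complex IV and not in complex I. The mitochondrial genes were 7 of complex I, 1 of complex III, 3 of complex IV and 2 of complex V.

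The respiratory chain passes electrons from NADH and succinate through complexes I to IV to oxygen and pumps protons across the inner mitochondrial membrane, and complex V uses the proton gradient to make ATP. Its subunits come from both genomes: the mitochondrial chromosome encodes a few hydrophobic core subunits of complexes I, III, IV and V, while the nucleus encodes all others and the whole of complex II. The mitochondrial genes are read from long polycistronic transcripts, whereas each nuclear gene has a promoter of its own, and many of those promoters carry motifs of the transcription factors NRF1 and GABP. Macrophages of different organs and in different states of activation rely on this chain to different extents.

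RNA was sequenced from 4 populations of tissue-resident macrophages of female C57BL/6J mice aged 8 to 12 weeks, with 3 libraries in each of 8 groups. Microglia (MG, brain), Kupffer cells (KC, liver), peritoneal macrophages (PM) and alveolar macrophages (AM, lung) were sorted by flow cytometry from fresh tissue and are called ex vivo. The cultured counterparts (MG-LCs, KC-LCs, PM-LCs and AM-LCs, together TRM-LCs) were grown on polyethylenimine-coated plastic and are called in vitro. The growth factor was M-CSF for KC-LCs and PM-LCs, M-CSF with IL-34 for MG-LCs, and GM-CSF for AM-LCs. MG-LCs, KC-LCs and PM-LCs had high glucose and low oxygen, whereas AM-LCs had no glucose and atmospheric oxygen, so culture differed from the organ in several ways at once, which cannot be told apart here, and so did AM-LCs from the other cultures. Cultures were started from cell suspensions of the organ or from peritoneal lavage, and flasks of MG-LCs, PM-LCs and AM-LCs pooled several mice, whereas a flask of KC-LCs came from a single liver. The sources do not say whether libraries of a group came from separate mice, so p-values measure the spread between libraries, which may be partly technical. Because RNA was measured in bulk, a smaller share of some cells and less RNA per cell cannot be told apart.

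The libraries held from 29569486 to 47105111 reads assigned to genes. The 8 macrophage marker genes had reads in every group and summed to between 14170 and 122700 CPM (counts scaled to library size, with TMM normalization). Some libraries stood apart. Markers of fibroblasts and mesothelium summed to 30970 CPM in MG-LC replicate 1, against 7.39 and 1012 CPM in the remaining MG-LC libraries, to 2208 CPM in PM-LC replicate 2 and to 1667 CPM in AM-LC replicate 3, and to at most 29.8 CPM in KC-LCs. Sorted KCs held hepatocyte marker RNA (between 122.7 and 263.7 CPM) and endothelial marker RNA (between 421.6 and 839 CPM), whereas KC-LCs held at most 0.328 and 86.9 CPM, and all 8 hepatocyte, all 8 B cell and all 8 T cell markers were called higher in KCs, as were all 4 red cell markers tested (at most 34.7 CPM in sum). Of the 6 endothelial markers tested there, 4 were called higher in KCs and 1, Vwf, higher in KC-LCs. In MG, B cell markers summed to between 578.5 and 660.9 CPM with Ms4a1, Pax5 and Igkc at 0, against at most 39.5 CPM in MG-LCs, and in AMs T cell markers summed to between 408.2 and 532.8 CPM, against at most 192.4 CPM in AM-LCs. Of the 8 T cell markers, 4 were tested in AMs, and 2 of these were called higher ex vivo and 0 in vitro. Lung epithelium markers summed to between 161.6 and 215.2 CPM in AMs and at most 27.1 CPM in AM-LCs (3 of 5 tested called higher ex vivo), and neutrophil markers to at most 8.16 CPM in AMs and between 34.5 and 93.1 CPM in AM-LCs (2 of 2 tested called higher in vitro). MG-LC replicate 3 and PM-LC replicate 3 had the largest share of mitochondrially encoded reads of their groups, as described below. The part of these differences in the results was not tested.

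Of the 13 mitochondrial genes, 8 had enough reads to be compared. These were mt-Nd1, mt-Nd2, mt-Nd3, mt-Nd4, mt-Nd5 and mt-Nd6 of complex I, mt-Cytb of complex III and mt-Co1 of complex IV. Over all 24 libraries together, mt-Co2 had 3 reads, mt-Atp6 2, and mt-Co3, mt-Atp8 and mt-Nd4l none, so the mitochondrial part of complex V and 2 of the 3 mitochondrial subunits of complex IV were not measured, and a count of 0 in a library still allows up to 3 reads by counting error alone. Most of the sequence of the other genes, mt-Atp8 excepted, also occurs in other annotated transcripts, as does part of several genes that were measured. Of all 50-base stretches of the transcript, 100% in mt-Co2, 99.9% in mt-Co3, 99.5% in mt-Atp6, 98.8% in mt-Nd4l and 98.0% in mt-Nd3 also occur in another annotated transcript, against 62.2% in mt-Nd4, 51.1% in mt-Co1, 8.19% in mt-Nd2, 7.61% in mt-Nd5, and none in mt-Nd1, mt-Nd6 and mt-Cytb. mt-Nd3 had 1364 reads in all, mt-Nd4 142501 and mt-Co1 457962. mt-Atp8 shares no such stretch and lies at chrM:7766-7969 between mt-Co2 and mt-Atp6, overlapping the latter. Whether reads that match several places were counted is not given in the sources used here, and if they were left out, levels of mt-Co1 and mt-Nd4 come from part of the gene. Counting did not use the strand, so reads of mt-Nd6 and of transcripts antisense to it cannot be told apart.

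The copies lie mainly in a run of 7 pseudogenes at chr1:24611535-24616197 on the minus strand, and none of the copies in the table had more than 184 reads over the 24 libraries. The first 60 bases of mt-Co3, of its copy Gm28437 and of mt-Cytb, from the GENCODE vM21 transcripts of GRCm38, are shown because they show how a gene with a copy differs from one without: the first pair is the same sequence, and the copy matches 783 of the 783 bases compared, while mt-Cytb has no such copy and was among the deepest members with 527252 reads.
mt-Co3, chrM:8607-8666, plus strand: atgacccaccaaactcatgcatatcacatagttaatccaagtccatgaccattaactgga
Gm28437, chr1:24613912-24613971, minus strand: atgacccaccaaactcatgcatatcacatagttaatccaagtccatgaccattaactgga
mt-Cytb, chrM:14145-14204, plus strand: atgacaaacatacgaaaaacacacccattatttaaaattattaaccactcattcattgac

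The share of all counted reads that fell on the chain differed between the genomes. Nuclear members took 0.447%, 0.480% and 0.470% of the reads in the 3 MG libraries and 1.23%, 0.992% and 0.839% in MG-LCs, so that the groups were well apart. In KCs the nuclear share was 1.06%, 0.721% and 0.656% and in KC-LCs 1.26%, 1.29% and 1.01%. These shares overlapped only between KC replicate 1 and KC-LC replicate 3. In PMs it was 1.03%, 0.924% and 0.937% and in PM-LCs 1.09%, 1.41% and 0.711%, with PM-LC replicate 3 below all sorted PMs. In AMs it was 1.26%, 1.09% and 1.09% and in AM-LCs 1.26%, 1.25% and 1.22%. AM replicate 1 (1.2641%) lay above every AM-LC library (at most 1.2615%).

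The mitochondrially encoded share went the other way in KCs and PMs. It was 0.345%, 0.163% and 0.224% of the reads in KCs and 0.0622%, 0.0706% and 0.103% in KC-LCs, without overlap. PMs held 0.334%, 0.261% and 0.474% and PM-LCs 0.0699%, 0.0926% and 0.241%, again without overlap, although PM-LC replicate 3 came close. In MG the share was 0.108%, 0.118% and 0.117%, and MG-LCs spanned it with 0.0958%, 0.166% and 0.419%. AMs held 0.252%, 0.207% and 0.246% and AM-LCs 0.339%, 0.289% and 0.367%, the AM-LCs above the AMs in all libraries. These shares leave out the 5 mitochondrial genes with at most 3 reads and are therefore a lower limit for the mitochondrial genome.

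**Figure D1:**
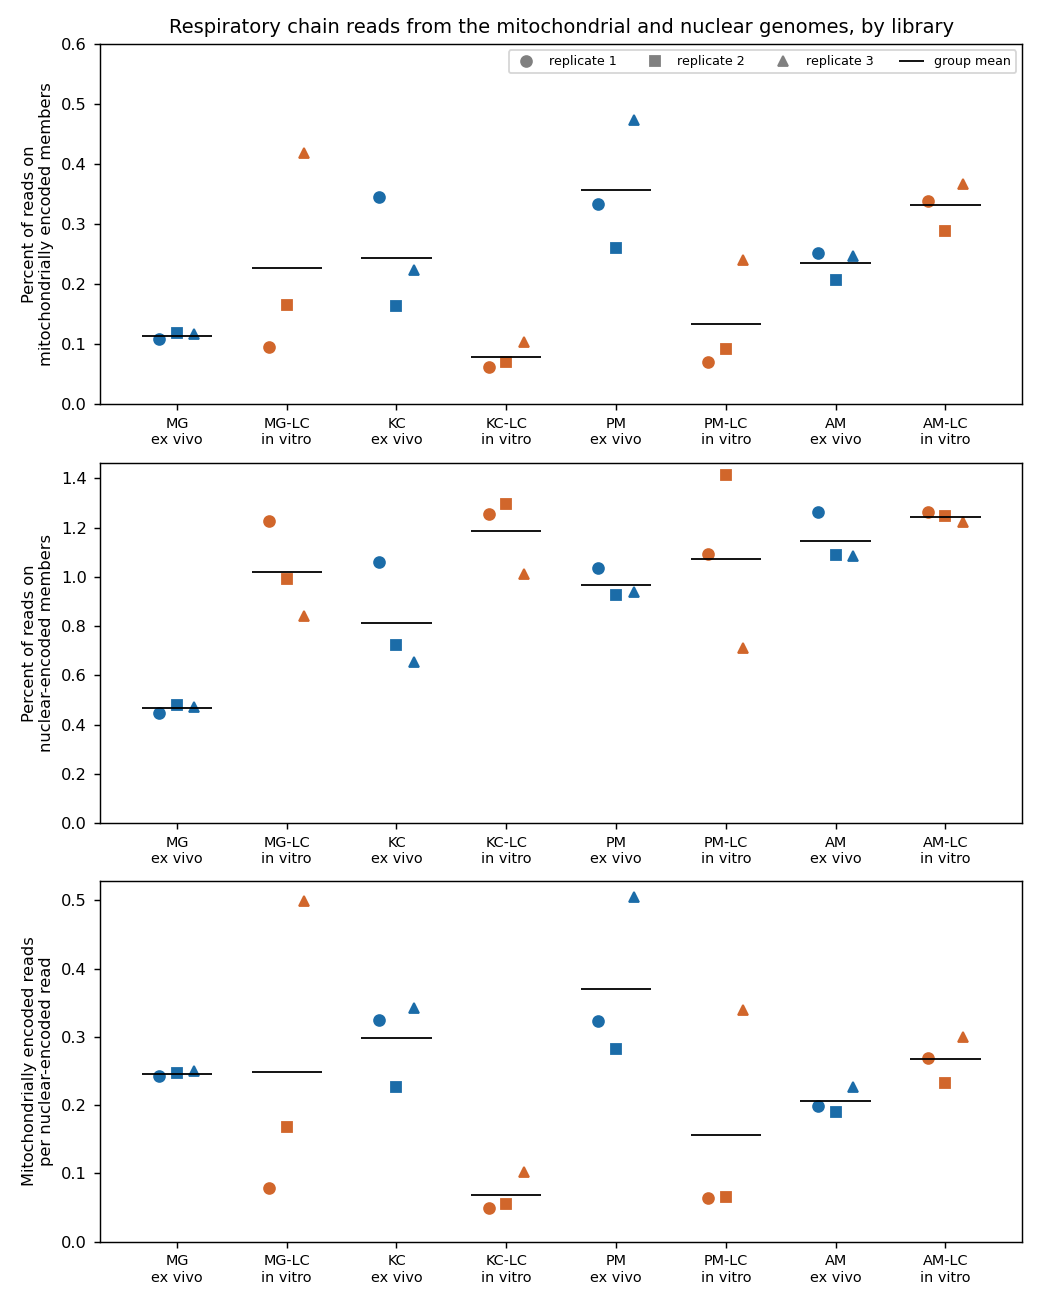
Percent of counted reads on mitochondrially encoded members (top), percent on nuclear-encoded members (middle) and the ratio of the former to the latter (bottom) in each of the 24 libraries, with symbols for the replicate and a line for the group mean. Mitochondrially encoded reads were fewer in KC-LCs than in KCs (at most 0.103% against at least 0.163%), nuclear reads were fewest in MG (at most 0.480%), and replicate 3 had the highest ratio in 8 of 8 groups.

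Per 100 reads on nuclear members, 32.5, 22.6 and 34.2 reads fell on mitochondrial members in KCs and 4.95, 5.46 and 10.2 in KC-LCs. In PMs the values were 32.3, 28.2 and 50.5 and in PM-LCs 6.40, 6.54 and 33.9. MG had 24.2, 24.7 and 25.0 and MG-LCs 7.82, 16.7 and 49.9. The ratio was most even in the lung, with 19.9, 19.1 and 22.7 in AMs and 26.8, 23.2 and 30 in AM-LCs. In 8 of 8 groups the highest ratio was that of the library numbered 3, and what the number stands for is not given in the labels.

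Culture effects were tested for each gene with edgeR's quasi-likelihood test on all genes of a population together, with Benjamini-Hochberg adjustment across every gene in that fit. Log2 fold changes are ex vivo minus in vitro, so that a negative value stands for a higher level in culture, and a gene was called at an adjusted p under 0.05. In each population, 89 nuclear and 8 mitochondrial members passed the filter on low counts. The 5 nuclear members that did not pass were Cox4i2, Cox7b2, Cox8b, Cox8c and Ndufa4l2. None of the others was called in the same direction in all 4 populations. The libraries ex vivo and in vitro did not overlap, with the in vitro side higher, for 79 nuclear members in MG (30.1% of all genes tested), 65 in KCs (27.1%), 64 in AMs (31%) and 11 in PMs (24.4%), and with the ex vivo side higher for 2 (35.3%), 2 (27%), 3 (30.7%) and 2 (24.4%). Of the nuclear members, 29 were called higher in vitro in 3 populations, 30 in 2 and 22 in 1, and of the latter Ndufaf7 and Cox6b2 were called higher ex vivo in another population. Calls repeated between populations were not counted over all genes, so whether they are more frequent among the members was not tested.

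In MG, the nuclear-encoded chain was lower than in MG-LCs in nearly every subunit. Of the 89 nuclear members tested, 76 were higher in vitro and 1 was higher ex vivo, next to 25.2% and 21.2% of all genes tested. The members called higher in vitro were 34 of the 36 complex I subunits, 3 of the 8 complex I assembly factors, 3 of 4 in complex II, 8 of 8 in complex III, 13 of 15 in complex IV and 15 of 17 in complex V. The median log2 fold change was -1.56 over the nuclear members and -0.03 over all genes, and by complex it was -2.14 in complex IV, -1.77 in complex III, -1.59 in complex V, -1.51 in complex I and -1.20 in complex II. Summed over the nuclear subunits of complex IV, the level was 432, 490 and 433 CPM in MG and 2066, 1960 and 1698 CPM in MG-LCs.

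Cox4i1, the common form of a structural subunit of complex IV, stood at 75.0, 81.9 and 77.6 CPM in MG and at 325.5, 414.8 and 388.0 CPM in MG-LCs. The groups did not overlap, and the log2 fold change was -2.31 ± 0.19 (SE, edgeR adjusted p = 0.000905). Cox5a, a further complex IV subunit, was at 16.1, 16.2 and 17.6 CPM in MG and 85.6, 83.9 and 64.5 CPM in MG-LCs (-2.28 ± 0.18, edgeR adjusted p = 0.000814). Among complex I subunits the largest change was that of the small accessory subunit Ndufa1, from 14.8, 19.7 and 14.5 CPM in MG to 92.9, 98.7 and 76.0 CPM in MG-LCs (-2.50 ± 0.20, edgeR adjusted p = 0.000917). In complex III it was that of the small subunit Uqcr10 (-2.38 ± 0.22), in complex V that of the proteolipid Atp5mpl (-2.43 ± 0.20), in complex II that of the membrane anchor Sdhc (-1.36 ± 0.16) and among assembly factors that of Ndufaf5 (-1.80 ± 0.47), and MG and MG-LCs did not overlap in any of these. In complex IV it was that of the muscle-type subunit Cox7a1, which was low in MG (between 0.0881 and 0.167 CPM) and MG-LCs (between 1.98 and 3.73 CPM), with -4.58 ± 0.55.

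The 12 nuclear members not called in MG included Sdha, Ndufs8, Ndufab1, Cox6a2, Cox7c, Atp5s and Cycs. The 1 member higher in MG was Ndufaf7, a methyltransferase needed for the assembly of complex I, at 41.4, 40.1 and 46.2 CPM in MG and 28.4, 27.0 and 18.7 CPM in MG-LCs (0.74 ± 0.21, edgeR adjusted p = 0.0307). The groups did not overlap, but the call was lost when any 1 of the MG libraries was left out. Without MG-LC replicate 1, the library with fibroblast markers, 77 nuclear members were called higher in vitro and 2 higher ex vivo.

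The 8 mitochondrial genes were not called in MG, with a median log2 fold change of -0.89 and 2 of them past an unadjusted p of 0.05. DESeq2 and limma-voom called none either. The MG-LC libraries differed widely. mt-Cytb was at 276.1, 306.5 and 308.2 CPM in MG and at 271.7, 488.1 and 713.8 CPM in MG-LCs. mt-Co1 was at 142.2, 146.5 and 136.1 CPM in MG and at 168.7, 210.4 and 1848 CPM in MG-LCs, so that 1 library held most of the difference. Without MG-LC replicate 1, all 8 were called higher in vitro, and with a trend on transcript length and GC content removed 7 were.

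**Figure D2:**
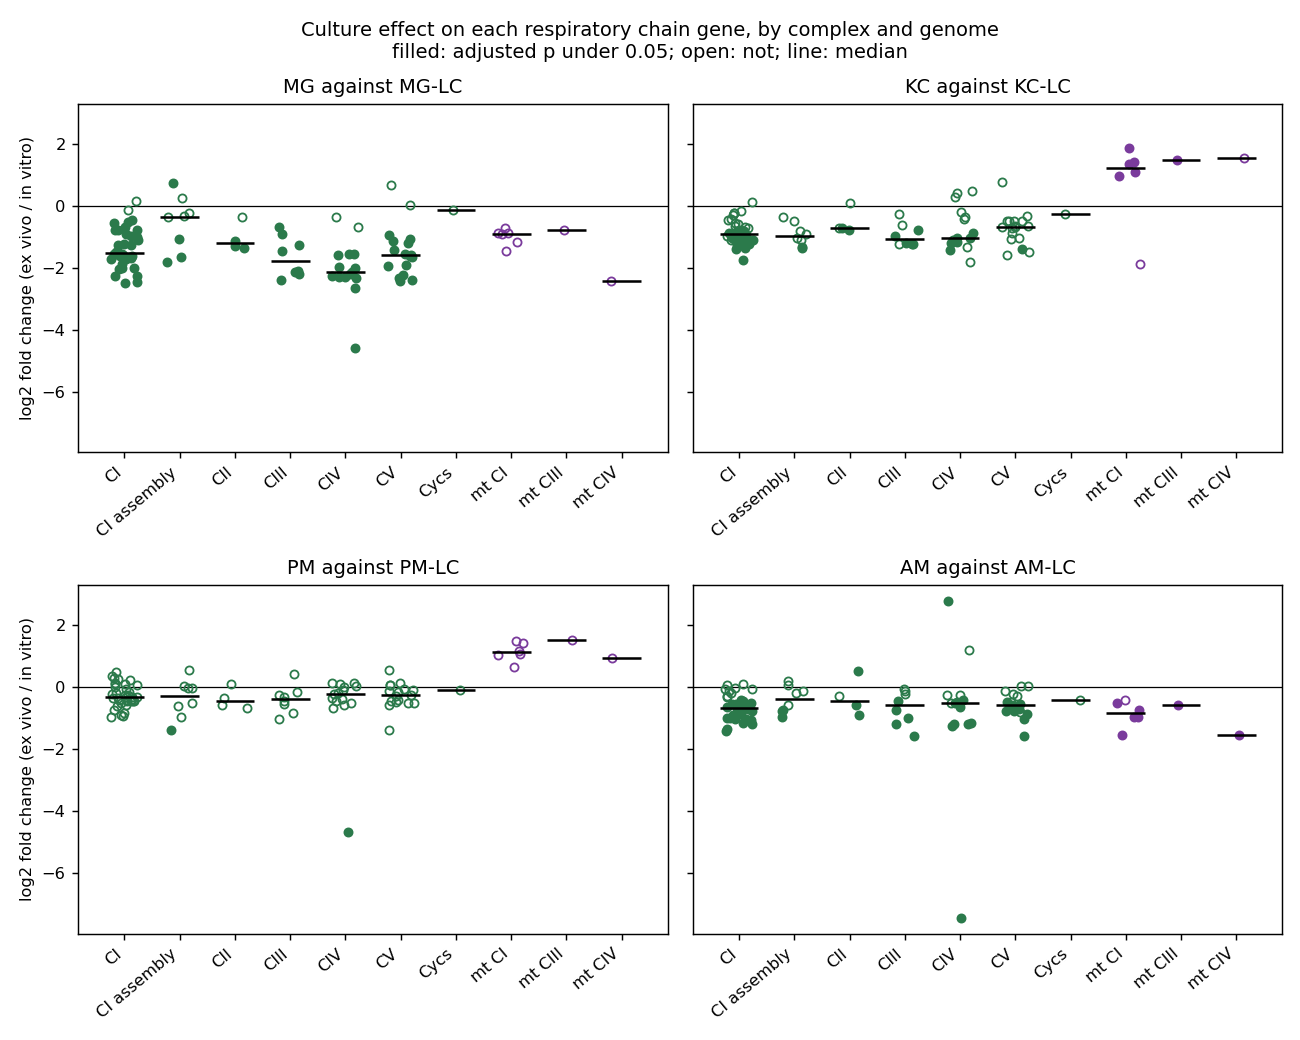
Log2 fold change (ex vivo over in vitro) of each member tested, by complex and genome, in the 4 populations, with filled points for an adjusted p under 0.05 and a line for the median. Nuclear genes lie below 0 in most cases (medians -1.56, -0.86, -0.31 and -0.57 from MG to AM). The mitochondrial genes lie above 0 in PMs and, except for mt-Nd3, in KCs (medians 1.13 and 1.39), and below 0 in MG and AMs (-0.89 and -0.83).

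In KCs, the genomes changed mostly in opposite directions: most nuclear genes were higher in KC-LCs, and 7 of the 8 mitochondrial genes tested were higher in KCs. Of the 89 nuclear members, 34 were called higher in vitro and 0 higher ex vivo with edgeR, next to 14.4% and 19.4% of all genes tested. At an unadjusted p under 0.05, 59 were higher in vitro and 1 was higher ex vivo, and DESeq2 called 50 and 1, and limma-voom 47 and 0. The 34 were 20 of 36 subunits and 1 assembly factor of complex I, 2 of 4 in complex II, 4 of 8 in complex III, 6 of 15 in complex IV and 1 of 17 in complex V. The median was -0.86 over the nuclear members and 0.01 over all genes.

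Atp5c1, the gamma subunit of the rotor of complex V, was at 151.0, 131.3 and 113.1 CPM in KCs and 351.3, 380.5 and 325.2 CPM in KC-LCs, without overlap (-1.38 ± 0.23, edgeR adjusted p = 0.00416). Cox4i1 was at 279.6, 173.8 and 149.0 CPM in KCs and 475.4, 665.3 and 503.7 CPM in KC-LCs (-1.41 ± 0.32, edgeR adjusted p = 0.0123). In complex III, Uqcrq had 113.7, 67.0 and 43.0 CPM in KCs and 183.3, 226.3 and 124.6 CPM in KC-LCs (-1.22 ± 0.40, edgeR adjusted p = 0.0467). For these 3 genes each KC-LC library was above each KC library. The largest called change in complex I was that of the accessory subunit Ndufb4 (-1.73 ± 0.51, edgeR adjusted p = 0.0343), of whose 50-base stretches 37.0% occur in other transcripts. Among assembly factors it was that of Ndufaf2 (-1.35 ± 0.44, edgeR adjusted p = 0.0484) and in complex II that of Sdhd (-0.78 ± 0.23, edgeR adjusted p = 0.0342). Cox5a took the other direction, with 133.6, 129.0 and 141.6 CPM in KCs above 97.6, 111.6 and 87.2 CPM in KC-LCs, although it was not called (0.48 ± 0.21, edgeR adjusted p = 0.107).

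Of the 8 mitochondrial members, 6 were called higher in KCs and 0 higher in KC-LCs, with a median of 1.39, and DESeq2 and limma-voom each called 7 and 0. At an unadjusted p under 0.05, 7 were higher in KCs and 1, mt-Nd3, was higher in KC-LCs. mt-Cytb, the 1 mitochondrial subunit of complex III, was at 790.4, 444.6 and 597.4 CPM in KCs and 180.9, 193.2 and 291.6 CPM in KC-LCs, without overlap (1.5 ± 0.33, edgeR adjusted p = 0.0111). mt-Nd4 was at 314.2, 95.9 and 178.9 CPM in KCs and 40, 60.1 and 67.0 CPM in KC-LCs (1.86 ± 0.45, edgeR adjusted p = 0.0163). mt-Nd1, mt-Nd2, mt-Nd5 and mt-Nd6 were called in the same direction with log2 fold changes of 0.96, 1.11, 1.41 and 1.37. mt-Co1 was also higher in each KC library (742.3, 397.8 and 569.6 CPM against 96.4, 123.3 and 377.2 CPM) but was not called (1.55 ± 0.54, edgeR adjusted p = 0.0600).

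The KC counts rested on single libraries. Left out in turn, KC replicates 1, 2 and 3 gave 59, 12 and 7 nuclear calls higher in vitro, and KC-LC replicates 1, 2 and 3 gave 14, 5 and 16. Mitochondrial calls higher ex vivo fell to 3 without KC replicate 3 and to 1 without KC-LC replicate 1 or KC-LC replicate 2, and to 1 after removal of a trend on transcript length and GC content. KC replicate 1, without which the nuclear count was highest, was also the KC library with the most hepatocyte, B cell and T cell marker RNA (263.7, 402.1 and 213.2 CPM) and the least endothelial marker RNA (421.6 CPM).

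PMs and PM-LCs differed least in the nuclear genes. Of the 89 nuclear members, 2 were called higher in vitro and 0 higher ex vivo with edgeR, next to 16.8% and 12.1% of all genes tested. At an unadjusted p under 0.05, 11 were higher in vitro and 0 higher ex vivo, and DESeq2 called 6 and 0, and limma-voom 2 and 0. The 2 called were Cox6a2, the muscle-type form of a complex IV subunit (-4.68 ± 0.78, edgeR adjusted p = 0.00464), and the assembly factor Ndufaf6, at 5.05, 3.60 and 6.94 CPM in PMs and 13.6, 19.1 and 7.67 CPM in PM-LCs (-1.36 ± 0.43, edgeR adjusted p = 0.0496). The median was -0.31 over the nuclear members and -0.01 over all genes.

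The mitochondrial genes were higher in PMs, but none of the 8 was called with edgeR. Of these, 5 passed an unadjusted p of 0.05, and DESeq2 and limma-voom called 5 each. mt-Cytb was at 972, 827 and 1467 CPM in PMs and 174.3, 233.5 and 709.9 CPM in PM-LCs. Each PM library was above each PM-LC library, with 1.54 ± 0.55 (edgeR adjusted p = 0.0738). The 1 high PM-LC library was replicate 3, which was also the lowest of its group in the summed nuclear level of complexes I to V. Without it, 38 nuclear members were called higher in vitro and 7 mitochondrial members higher ex vivo. The log2 fold change was then 2.45 for mt-Cytb (edgeR adjusted p = 0.00221), 2.39 for mt-Nd4 (edgeR adjusted p = 0.00190), 2.06 for mt-Co1 (edgeR adjusted p = 0.00284) and -0.84 for Sdhd (edgeR adjusted p = 0.00554).

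In AMs, both genomes were lower than in AM-LCs after TMM normalization. As shares of counted reads the nuclear members overlapped, with 1.2641% in AM replicate 1 and at most 1.2615% in AM-LCs. The nuclear direction thus holds for normalized levels and not for every library by share. Of the 89 nuclear members, 57 were called higher in vitro and 2 higher ex vivo, next to 25.9% and 22.9% of all genes tested. The 57 were 27 of 36 subunits and 3 of 8 assembly factors of complex I, 2 of 4 in complex II, 5 of 8 in complex III, 10 of 15 in complex IV and 10 of 17 in complex V. The median was -0.57 over the nuclear members and -0.04 over all genes. Uqcrq stood at 115.6, 95.9 and 91.2 CPM in AMs and 298.6, 341.0 and 249.5 CPM in AM-LCs (-1.56 ± 0.15, edgeR adjusted p = 0.000279). Cox4i1 was at 399.0, 338.1 and 295.4 CPM in AMs and 743.6, 903.5 and 677.8 CPM in AM-LCs (-1.18 ± 0.16, edgeR adjusted p = 0.00114). Neither gene overlapped between the groups.

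In complex I the largest called change was that of the accessory subunit Ndufb9 (-1.40 ± 0.15, edgeR adjusted p = 0.000489), in complex II that of Sdhd (-0.89 ± 0.16), among assembly factors that of Ndufaf4 (-0.94 ± 0.20), in complex V that of Atp5l (-1.56 ± 0.24), of whose 50-base stretches 68.5% occur in other transcripts, and in complex IV that of Cox6a2 (-7.44 ± 0.58). The 2 members higher in AMs were Cox6b2, the testis-type form of a complex IV subunit, and Sdha, the flavoprotein that oxidizes succinate. When a trend on transcript length and GC content was removed, the calls were 29 higher in vitro and 8 higher ex vivo, and without AM replicate 2 or AM replicate 3 there were 37 higher in vitro.

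All 8 mitochondrial genes had a higher mean in AM-LCs, and 7 were called, with mt-Nd2 the exception. mt-Co1 was at 443.6, 380.1 and 470.1 CPM in AMs and 1237, 1230 and 1241 CPM in AM-LCs (-1.53 ± 0.12, edgeR adjusted p = 0.000168). mt-Cytb was at 827.7, 714.9 and 814.1 CPM in AMs and 1101, 1131 and 1253 CPM in AM-LCs (-0.58 ± 0.13, edgeR adjusted p = 0.00994). mt-Nd3 had the largest log2 fold change in complex I (-1.55 ± 0.41, edgeR adjusted p = 0.0181), at 1.97, 1.23 and 1.32 CPM in AMs and 5.65, 3.09 and 4.41 CPM in AM-LCs, and 98.0% of its 50-base stretches occur elsewhere. Without AM replicate 2, 4 of the 8 were called, and 2 after removal of the length and GC trend.

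**Figure D3:**
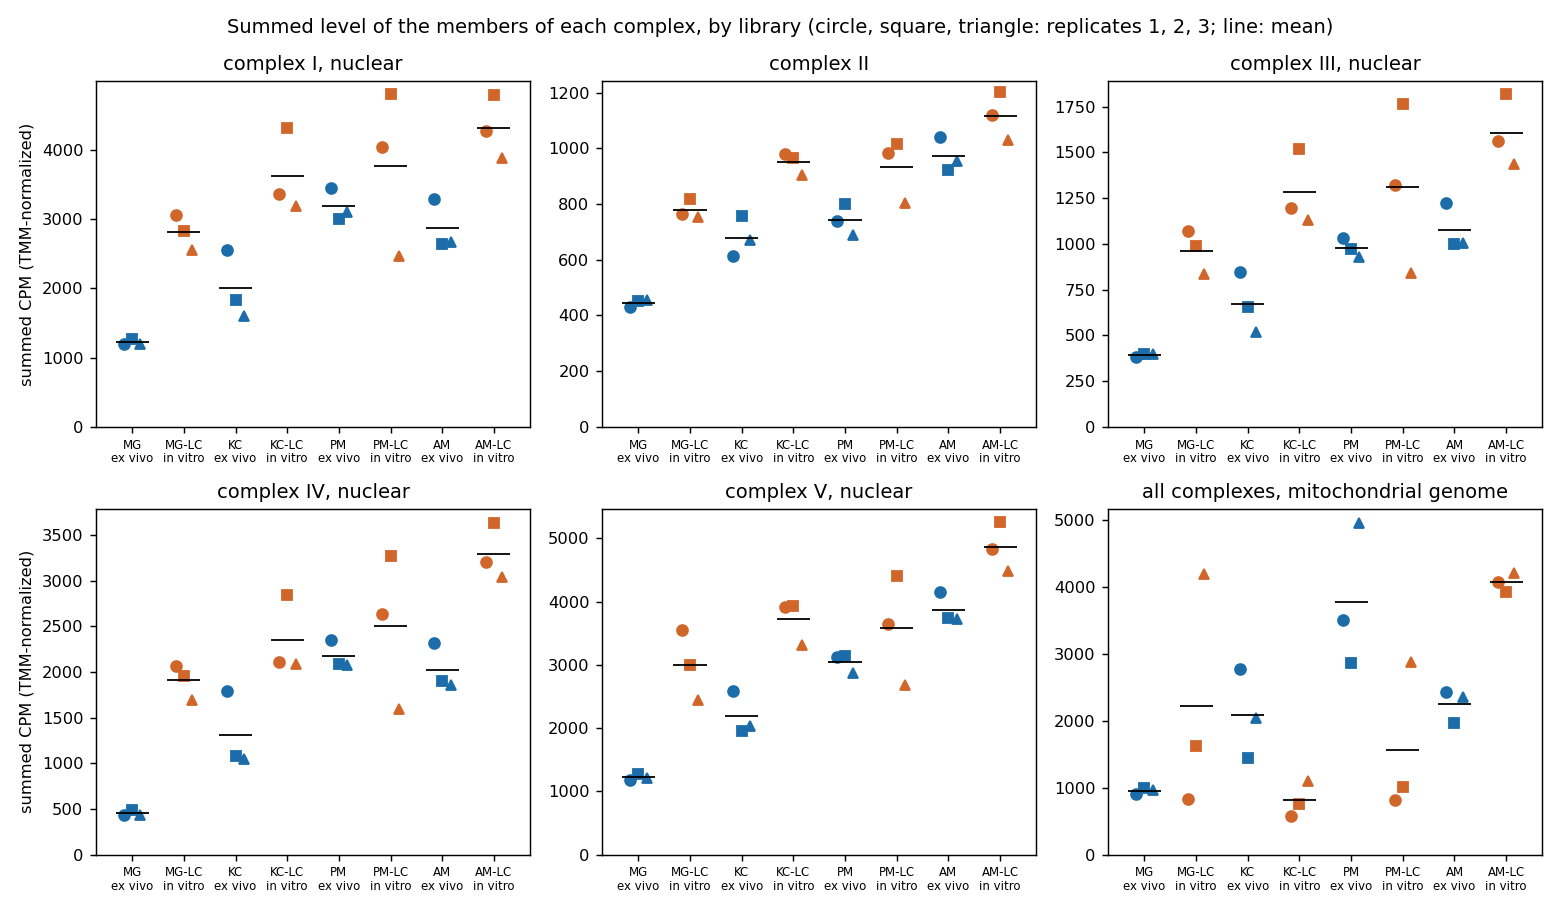
Summed CPM of the nuclear members of complexes I to V and of the mitochondrially encoded members in each library, with symbols for the replicate and lines for group means. Complex IV rises from at most 490 CPM in MG to at least 1698 CPM in MG-LCs, complex II lies between 429 and 1203 CPM in all libraries, and the mitochondrial sum is highest in PMs and AM-LCs and, among MG-LCs, in replicate 3.

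The measured mitochondrial genes did not keep to a fixed ratio. The ratio of mt-Co1 to mt-Cytb was between 0.442 and 0.515 in MG and between 0.532 and 0.577 in AMs, but between 0.990 and 1.12 in AM-LCs. In PMs it was between 0.647 and 0.733 and in PM-LCs 1.15, 0.71 and 1.11. In KCs it was between 0.895 and 0.953, and the KC-LC libraries lay on both sides of that range with 0.533, 0.638 and 1.29. MG-LC replicate 3 had the highest ratio, 2.59, against 0.621 and 0.431 in the other MG-LC libraries, and it also had the largest share of mitochondrial ribosomal RNA among MG-LCs (0.36%). In MG that share was between 0.0255% and 0.0420%, and in AM-LCs between 0.303% and 0.489%.

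Within complex I, the 7 nuclear core subunits, which include those that carry the flavin and the iron-sulfur clusters, were compared with the 29 accessory subunits. In AMs, 1 of the 7 core subunits (Ndufv2, -0.70 ± 0.20) and 26 of the 29 accessory subunits were called higher in vitro, with medians of -0.07 and -0.79. In MG the counts were 6 of 7 and 28 of 29, with medians of -0.67 and -1.58, and in KCs 3 of 7 and 17 of 29, with medians of -0.68 and -0.97. None was called in PMs (medians -0.36 and -0.31). The transcripts of the core subunits were longer, with a median of 977 bases against 629, and the difference between the classes was not tested. With the trend on transcript length and GC content removed, the core subunit Ndufs1 was higher in AMs than in AM-LCs (0.35). That trend took the length of Ndufs1 as 651 bases, the median over its coding transcripts. Those transcripts together hold 3210 different 50-base stretches, and whether the direction holds with the longest of them was not tested.

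The subunits of complex II, which is encoded by the nucleus alone and also works in the tricarboxylic acid cycle, did not move together. Sdha was at 445.2, 460.2 and 473.7 CPM in AMs and 327.6, 309.4 and 319.1 CPM in AM-LCs, higher in each AM library (0.52 ± 0.10, edgeR adjusted p = 0.00561). The anchor Sdhd took the opposite direction, with 237.1, 176.0 and 175.7 CPM in AMs and 378.1, 404.5 and 307.7 CPM in AM-LCs (-0.89 ± 0.16, edgeR adjusted p = 0.00352). The iron-sulfur subunit Sdhb was also higher in AM-LCs (-0.58 ± 0.14, edgeR adjusted p = 0.0112), and Sdhc was not called (-0.27 ± 0.12, edgeR adjusted p = 0.104). In MG, Sdha differed little, with 224.1, 237.1 and 222.4 CPM ex vivo and 250.3, 306.2 and 282.7 CPM in vitro (-0.34 ± 0.18, edgeR adjusted p = 0.154), whereas Sdhb, Sdhc and Sdhd were called with -1.12, -1.36 and -1.29. In KCs, Sdhc and Sdhd were called (-0.70 and -0.78), next to 0.10 for Sdha. In PMs none of the 4 was called, although Sdhb and Sdhd passed an unadjusted p of 0.05, with edgeR adjusted p-values of 0.0505 for Sdhb and 0.0695 for Sdhd.

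Several subunits of complex IV exist as a common form and a tissue-restricted one. Cox6a2, known from heart and skeletal muscle (chr7:128205435-128206387), was at 0.12, 0.844 and 0.423 CPM in AMs and 113.2, 74.6 and 59.6 CPM in AM-LCs (-7.44 ± 0.58, edgeR adjusted p = 0.000146). No other group reached these levels. The highest library elsewhere was PM-LC replicate 2 with 12.6 CPM, next to 5.46 and 2.25 CPM in the other PM-LCs and 0.234, 0.191 and 0.353 CPM in PMs. Cox6a2 took 24.4%, 17.2% and 15.7% of the reads on the Cox6a pair in AM-LCs and at most 0.309% in AMs. Per kilobase of transcript, the mean level in AM-LCs was 121.3 CPM for Cox6a2 and 600.8 CPM for the common form Cox6a1. Cox6a1 itself was not called in AMs (-0.23 ± 0.10, edgeR adjusted p = 0.104). Markers of striated muscle and brown fat summed to at most 12.4 CPM in every library, and in AM-LCs to at most 4.81 CPM, with Myh6, Ucp1 and Cidea at 0.

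Cox6b2, known from testis (chr7:4751792-4753094), had the reverse pattern. It was at 56.9, 36.2 and 41.2 CPM in AMs and 3.49, 10.1 and 5.74 CPM in AM-LCs, without overlap (2.79 ± 0.40, edgeR adjusted p = 0.00144). In MG it was lower than in MG-LCs, with 0.903, 0.947 and 0.859 CPM against 5.80, 4.55 and 6.14 CPM (-2.65 ± 0.35, edgeR adjusted p = 0.00299). It took 13.4%, 10.8% and 12.8% of the reads on the Cox6b pair in AMs. Its mean level per kilobase in AMs was 102.9 CPM, against 649.3 CPM for the common form Cox6b1. Cox6b1 was higher in AM-LCs (-0.50 ± 0.14, edgeR adjusted p = 0.0227).

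Cox7a1, the muscle form of a further subunit, was at most 5.59 CPM in any library, while Cox7a2 was at 28.2, 35.4 and 31.7 CPM in MG and 293.8, 361.7 and 298.2 CPM in AM-LCs. Cox4i2, the form linked to low oxygen and lung, had 333 reads over the 24 libraries, and its highest level was 5.78 CPM in MG-LC replicate 1. Ndufa4l2, which is induced by low oxygen in other cells, was at 217.1, 0.0996 and 13.2 CPM in MG-LCs, at 0, 14.6 and 0.683 CPM in PM-LCs, and at 0.294, 0.878 and 18.7 CPM in AM-LCs. In sorted cells it had no reads, apart from 0.1 CPM in PM replicate 1. The highest library of each of these 3 groups was also the one with the most fibroblast and mesothelium marker RNA (30970, 2208 and 1667 CPM), MG-LC replicate 3 with 13.2 CPM of Ndufa4l2 had 1012 CPM of those markers, and in KC-LCs, where those markers summed to at most 29.8 CPM, it was at most 0.199 CPM. The part of those cells in its level was not tested. Of Cox7b2, Cox8b and Cox8c, 3, 87 and 0 reads were counted in all.

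**Figure D4:**
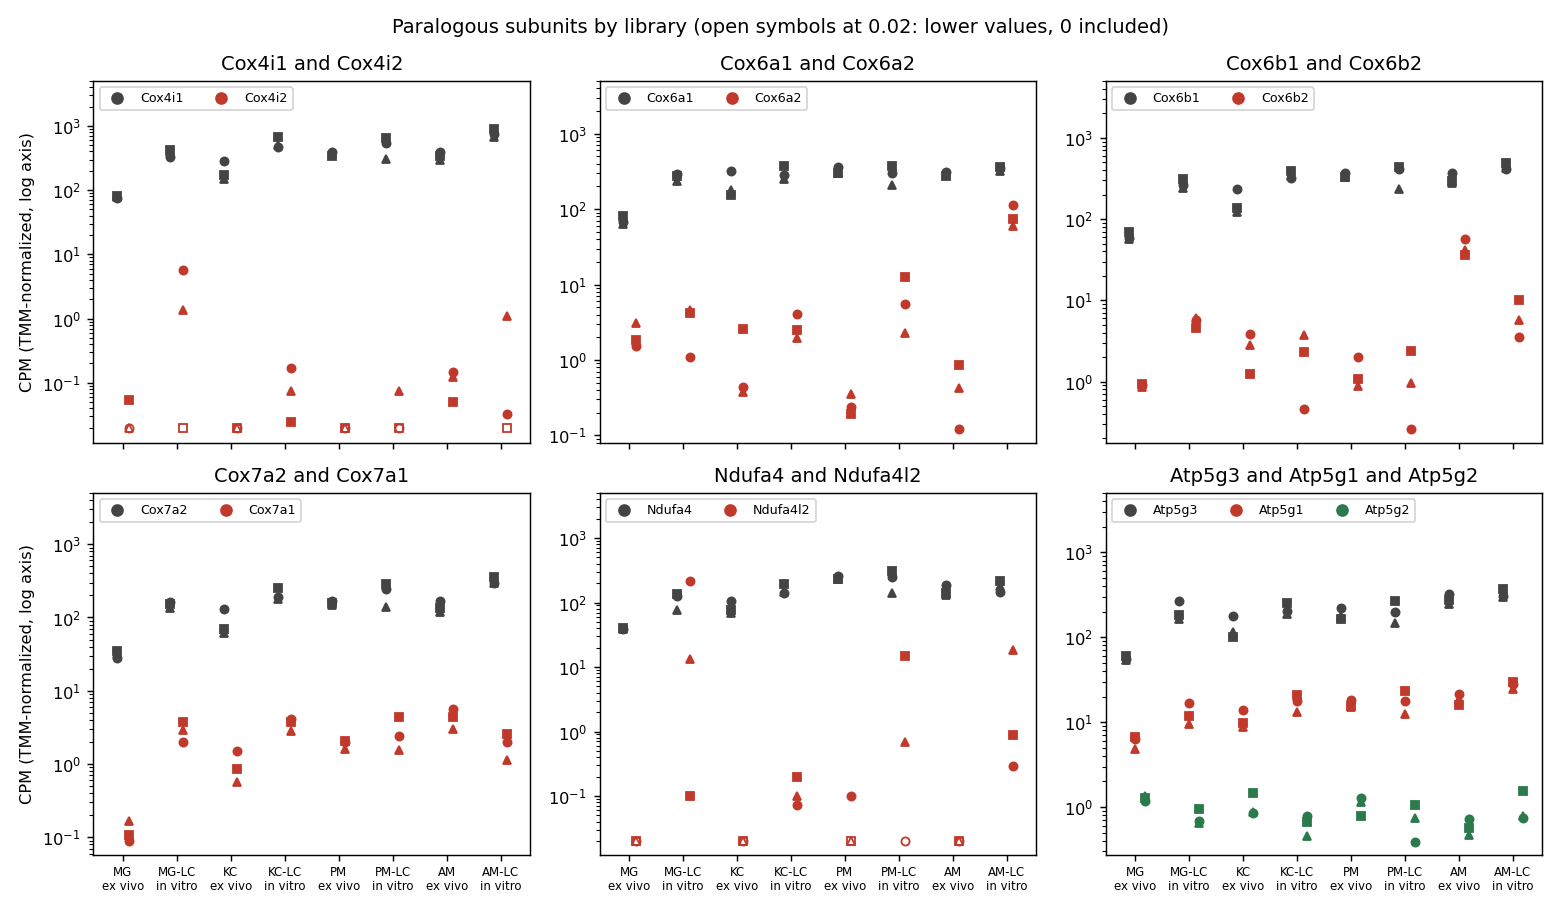
CPM (log axis) of paralogous subunits in each library, with symbols for the replicate and open symbols for values under 0.02 CPM, 0 included, and without division by transcript length. Cox6a2 is at 59.6 CPM or more in the AM-LC libraries and at most 12.6 CPM elsewhere, and Cox6b2 is at 36.2 CPM or more in the AM libraries and at most 10.1 CPM elsewhere.

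The subunit c of complex V, which forms the rotor ring, is encoded by 3 nuclear genes with the same mature product. By mean level per kilobase, Atp5g3 was highest in every group (between 78.5 CPM in MG and 451.3 CPM in AM-LCs), followed by Atp5g1 (between 2.22 and 10.2 CPM) and Atp5g2 (between 0.855 and 1.84 CPM). Atp5g3 was called in MG alone (-1.91 ± 0.25, edgeR adjusted p = 0.00280), and Atp5g1 in MG and AMs (-1.15 and -0.55). Of the 50-base stretches of Atp5g2, 36.7% occur in other transcripts. Cycs, the electron carrier between complexes III and IV, stood between 2.08 and 7.84 CPM in all libraries and was called in no population, with log2 fold changes from -0.40 to -0.08. Of its 50-base stretches, 28.5% occur in transcripts of 76 other genes, so its level is uncertain.

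Among sorted macrophages, the chain was lowest in MG. Per the study's methods, liver and lung were digested with collagenase, brain was homogenized in a glass potter and peritoneal cells came from lavage. Tissue and isolation therefore cannot be told apart among sorted cells. Differences among the 4 populations were called for 81 of 89 nuclear members and 8 of 8 mitochondrial ones, next to 70.9% of all genes tested. Against the mean of the other populations, 76 nuclear and 8 mitochondrial members were lower in MG, next to 25.2% of all genes. Higher in MG were 4 members, next to 26.2% of all genes: Ndufaf4 (0.38), Ndufaf7 (1.03), Cox6a2 (2.00) and Atp5s (0.87), a factor named after complex V. In PMs, 64 nuclear and 8 mitochondrial members were higher, next to 20.8% of all genes, and Cox6b2 alone was lower (-1.83), next to 15.1%. In AMs, 62 nuclear members and mt-Nd3 were higher, next to 24.7%, and Ndufaf7 was lower (-0.72), next to 21.9%. Without AM replicate 1 the members higher in AMs were 31 and not 63. In KCs, Cox5a (1.35), Atp5o (0.42) and mt-Co1 (0.70) were higher, next to 24.1%, and 7 nuclear members and mt-Nd3 were lower, next to 12.4%.

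The members with the smallest p among sorted cells were Cox5a, Cox6b2 and Uqcrfs1, the Rieske iron-sulfur protein of complex III (edgeR adjusted p = 1.51e-08, 4.94e-07 and 1.04e-06). Cox5a was at 16.1, 16.2 and 17.6 CPM in MG, at 69.8, 71.2 and 56.8 CPM in PMs, at 133.6, 129.0 and 141.6 CPM in KCs and at 145.4, 136.2 and 142.4 CPM in AMs. MG and PMs thus lay below KCs and AMs in every library, and KCs and AMs overlapped. Uqcrfs1 was lowest in MG (43.8, 43.1 and 46.3 CPM) and highest in AMs (168.9, 132.8 and 142.4 CPM). Cox6b2 was 4.94 higher in AMs on the log2 scale.

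Among TRM-LCs, few members differed. Cox6a2, Cox5a and mt-Cytb were called for any difference (edgeR adjusted p = 0.00361, 0.0230 and 0.0472), next to 7.85% of all genes tested. In AM-LCs against the mean of the other cultures, 9 nuclear members (Ndufa1, Ndufs1, Sdhd, Uqcrfs1, Cox4i1, Cox5a, Cox6a2, Cox7a2 and Atp5b) and 5 mitochondrial ones (mt-Nd1, mt-Nd3, mt-Nd4, mt-Nd5 and mt-Cytb) were higher, next to 8.38% of all genes, and 0 were lower, next to 4.71%. At an unadjusted p under 0.05, 35 nuclear and 8 mitochondrial members were higher and 1 nuclear member was lower, and limma-voom called 15 higher and 0 lower. The log2 differences were 4.38 for Cox6a2, 1.78 for mt-Cytb, 1.00 for Cox5a and 0.74 for Cox4i1. These counts rested on single libraries. The members higher in AM-LCs were 3, 2 and 2 without AM-LC replicates 1, 2 and 3, 8, 7 and 6 without KC-LC replicates 1, 2 and 3, 7 without MG-LC replicate 2, 6 without PM-LC replicate 1 and 25 without MG-LC replicate 1. In MG-LCs, KC-LCs and PM-LCs against the others, 0 members were called with edgeR in either direction (0.223%, 0.0945% and 0.122% of all genes were called lower, and 0.338%, 0.0135% and 0.405% higher). At an unadjusted p under 0.05, 26 nuclear members were lower in MG-LCs and 6 mitochondrial members lower in KC-LCs.

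The culture effect itself differed between populations for 44 of 92 nuclear and 8 of 8 mitochondrial members (interaction in a model of all 24 libraries, next to 36.3% of all genes tested). The smallest p was that of Cox5a (edgeR adjusted p = 1.06e-06), followed by Cox7a1 and Ndufa1 (edgeR adjusted p = 9.19e-05 and 0.000110). Against the mean of the other populations, the effect was lower in MG for 41 nuclear and 5 mitochondrial members, next to 12.3% of all genes, meaning that ex vivo minus in vitro was more negative in MG than elsewhere. It was higher in MG for Ndufaf4 (0.75), Ndufaf7 (1.21) and Cox6a2 (3.87), next to 7.55% of all genes. It was higher in PMs for 22 nuclear and 3 mitochondrial members, next to 6.96% of all genes, and lower for 0 with edgeR, next to 6.28%. At an unadjusted p under 0.05, 46 nuclear and 8 mitochondrial members were higher in PMs and 1 nuclear member was lower. In KCs the effect was higher for Cox5a (1.54), Cox6a2 (2.91), mt-Nd4, mt-Nd6 and mt-Co1, next to 10.4% of all genes, and lower for Ndufaf7 (-1.28), next to 5.06%. Within MG and KCs, Cox6a2 was not called (edgeR adjusted p = 0.41 and 0.298). The means it was compared with hold its log2 fold changes of -4.68 in PMs and -7.44 in AMs. In AMs it was higher for 7 members, among them Ndufv1, Sdhc, Uqcrfs1, Cox6b2 (3.54), Cox7a1 (3.51) and Atp5d, the delta subunit of complex V, next to 9.45%, and lower for Ndufaf4, Cox6a2 (-5.24) and mt-Nd5, next to 7.68%. By complex, the interaction was called for 14 of 18 nuclear members of complex IV, 16 of 36 nuclear subunits of complex I, 8 of 17 of complex V, 3 of 8 of complex III and 1 of 4 of complex II.

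Most nuclear members have short transcripts by the median over a gene's annotated coding transcripts. Median lengths were 518.5 bases in complex III, 588.5 in complex IV and 733.5 in complex I. Coding genes that are not members also shifted with transcript length, so the members were set beside genes of the same length. In MG, members of up to 500 bases had a median of -2.23 and 13 of 13 were higher in vitro, next to -0.34 and 34.1% in other coding genes of that length. Over 500 and up to 1000 bases the medians were -1.59 and -0.51, and 86.5% of members and 37.6% of the others were higher in vitro. In KCs the medians in these classes were -1.07 and -0.85 for members, next to -0.23 and -0.31. In AMs they were -0.75 and -0.62, next to -0.26 and -0.26. In PMs they were -0.48 and -0.27, next to -0.18 and -0.15. The share of members higher in vitro in that second class was 42.3% in KCs, 71.2% in AMs and 1.92% in PMs, next to 19.7%, 34.3% and 17.4% of other genes.

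**Figure D5:**
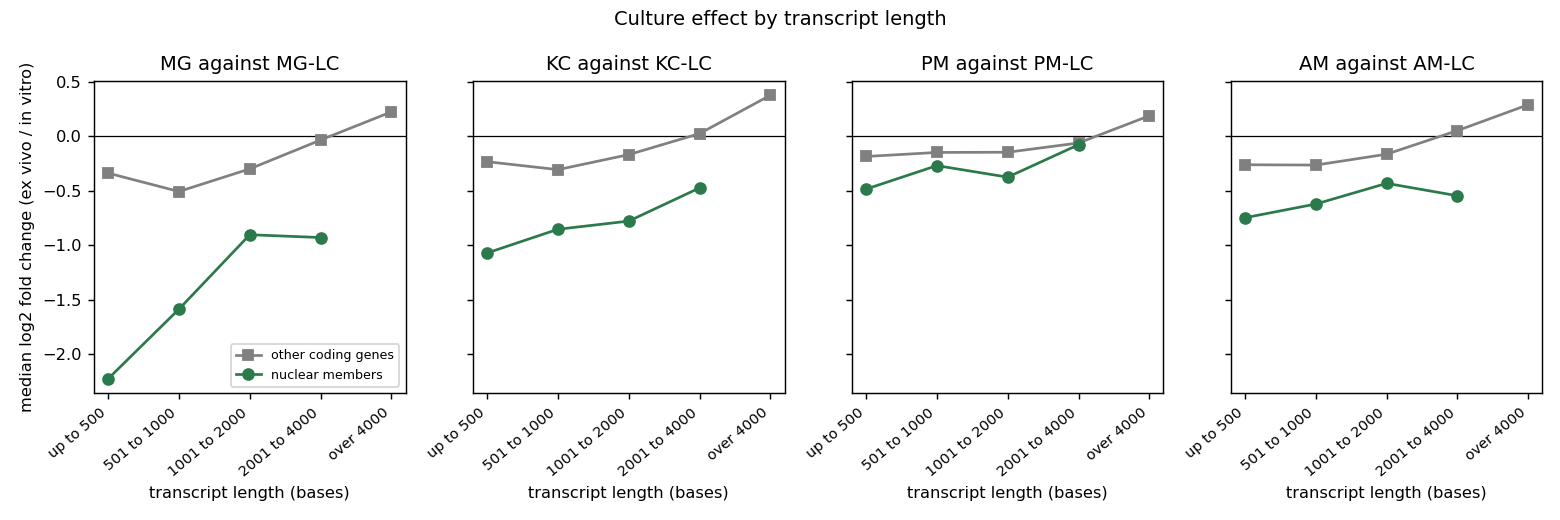
Median log2 fold change (ex vivo over in vitro) of nuclear members (circles) and of other coding genes (squares) in classes of transcript length in the 4 populations. The members lie below the other genes of their length class, with -2.23 against -0.34 for transcripts of up to 500 bases in MG and -0.48 against -0.18 in PMs, and the other genes rise to 0.23 or more at over 4000 bases in MG, KCs and AMs.

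Promoter sequences were matched for 77 of the 94 nuclear members in the RefSeq table of GRCm38.p6, over 250 bases before and 50 bases after the start. The core of the NRF1 motif (TGCGCA, both strands) was found in 24.7% of them and in 8.06% of all 27025 promoters, and the ETS motif read by GABP (CCGGAAG, both strands) in 22.1% and 9.12%. The motif read by YY1 (AAGATGG) was in 14.3% and 6.48%, that of the estrogen-related receptors (AAGGTCA) in 10.4% and 4.66%, the SP1 core (GGGCGG) in 46.8% and 35.9%, and the core of the hypoxia response element (ACGTG) in 26.0% and 19.7%. By complex, the NRF1 core was in 10 of 32 promoters of complex I, 2 of 3 of complex II, 1 of 5 of complex III, 2 of 14 of complex IV and 3 of 15 of complex V. These matches describe the letters of the windows and do not show binding. The 250 bases before the start of Sdhd, Ndufb6, Cox6a1 and Sdha are shown because these members carry the motifs and differ in their culture effect. NRF1 cores (exact TGCGCA) and ETS motifs are in capitals, and the ETS motif is read on the other strand as CTTCCGG. Other forms of the NRF1 motif were not searched, so the lower case letters may hold them.
Sdhd, chr9:50603850-50604099, minus strand: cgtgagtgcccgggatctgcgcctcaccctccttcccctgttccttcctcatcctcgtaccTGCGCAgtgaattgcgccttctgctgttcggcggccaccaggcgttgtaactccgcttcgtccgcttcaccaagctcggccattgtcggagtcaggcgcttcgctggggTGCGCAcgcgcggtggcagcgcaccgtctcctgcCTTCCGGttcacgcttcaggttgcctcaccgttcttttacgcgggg
Ndufb6, chr4:40279422-40279671, minus strand: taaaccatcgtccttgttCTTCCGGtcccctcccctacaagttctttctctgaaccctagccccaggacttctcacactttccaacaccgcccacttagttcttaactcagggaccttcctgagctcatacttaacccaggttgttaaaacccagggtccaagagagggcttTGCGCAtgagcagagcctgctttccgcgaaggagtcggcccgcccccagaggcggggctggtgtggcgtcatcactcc
Cox6a1, chr5:115348959-115349208, minus strand: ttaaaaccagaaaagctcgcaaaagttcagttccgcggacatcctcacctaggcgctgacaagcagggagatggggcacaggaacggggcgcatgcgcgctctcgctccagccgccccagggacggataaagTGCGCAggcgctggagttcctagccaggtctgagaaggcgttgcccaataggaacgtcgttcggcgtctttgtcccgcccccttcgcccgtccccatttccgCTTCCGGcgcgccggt
Sdha, chr13:74350241-74350490, minus strand: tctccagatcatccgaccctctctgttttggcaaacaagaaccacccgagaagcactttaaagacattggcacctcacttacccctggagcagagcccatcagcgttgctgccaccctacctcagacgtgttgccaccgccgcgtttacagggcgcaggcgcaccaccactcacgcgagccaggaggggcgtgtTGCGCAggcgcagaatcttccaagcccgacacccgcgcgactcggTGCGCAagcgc

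By exact matches alone, Sdhd held 2 NRF1 cores and 1 ETS motif in these stretches. Ndufb6 and Cox6a1 held 1 of each, and Sdha held 2 NRF1 cores and no ETS motif. The culture effects of these genes were unlike. Ndufb6, a complex I subunit, had log2 fold changes in the order MG, KC, PM and AM of -2.25, -1.37, -0.60 and -0.85. Sdhd had -1.29, -0.78, -0.66 and -0.89, Cox6a1 had -1.97, -0.43, 0.15 and -0.23, and Sdha had -0.34, 0.10, 0.10 and 0.52.

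Other genes that the chain depends on were counted in lists, to be read beside the share of all genes called higher in vitro (from MG over KCs and PMs to AMs 25.2%, 14.4%, 16.8% and 25.9%) and higher ex vivo (21.2%, 19.4%, 12.1% and 22.9%). Of the 77 tested genes for proteins of the mitochondrial ribosome, which translates the 13 mitochondrial messages, 45 were higher in vitro and 1 ex vivo in MG, 23 and 0 in KCs, 2 and 0 in PMs and 35 and 3 in AMs, with medians of -0.84, -0.64, -0.24 and -0.41. The largest called changes were those of Mrpl28 in MG (-2.35), Mrps18c in KCs (-1.63), Mrpl27 in PMs (-1.22) and Mrpl41 in AMs (-1.52), and those higher ex vivo were Mrps2 in MG (0.43) and Mrps6 in AMs (0.58). Of 42 assembly factors outside the Nduf genes, 14 were higher in vitro and 1 ex vivo in MG, 8 and 1 in KCs, 1 and 1 in PMs and 10 and 1 in AMs. In vitro these are shares of 33.3%, 19%, 2.38% and 23.8%, of which that in AMs was near the share of all genes. Their largest changes were those of Cmc2 (-2.26) and Tmem186 (1.76) in MG, Tmem242 (-2.08) and Ttc19 (1.51) in KCs, Coa5 (-0.70) and Tmem186 (1.28) in PMs, and Lyrm7 (-2.57) and Ecsit (0.55) in AMs.

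Of the 18 genes of mitochondrial DNA replication and expression, 7 were higher ex vivo and 1 in vitro in MG, 1 and 0 in KCs, 0 and 0 in PMs and 4 and 3 in AMs. The leading genes were the terminator protein gene Mterf1a (1.82) and the RNA-binding Slirp (-1.20) in MG, the DNA polymerase gene Polg in KCs (0.93), and its accessory subunit Polg2 (1.43) and the elongation factor Tefm (-1.06) in AMs. Among regulators of mitochondrial biogenesis, 3 of 8 were higher ex vivo in MG, 5 of 9 in AMs, 2 of 8 in KCs and 1 of 8 in PMs, and 0 in vitro in each. Ppargc1b, the coactivator PGC-1 beta, was at 27.5, 34.6 and 24.6 CPM in KCs and 2.26, 1.27 and 2.95 CPM in KC-LCs (3.77 ± 0.42, edgeR adjusted p = 0.00105). In AMs it was at 15.5, 16.8 and 17.7 CPM and in AM-LCs at 7.22, 5.46 and 6.85 CPM (1.34 ± 0.21, edgeR adjusted p = 0.00220). It was thus lower in every KC-LC and AM-LC library than in the sorted cells, and it was also called in PMs (2.09). In MG the leading gene was Pprc1, a related coactivator (2.02).

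Of 13 genes of the tricarboxylic acid cycle, which feeds complexes I and II, 10 were higher in vitro and 1 ex vivo in MG, 2 and 0 in KCs, 1 and 1 in PMs and 3 and 4 in AMs, led by Mdh2 (-1.22) and Idh3g (0.47) in MG, Fh1 (-0.93) in KCs, Dld (-0.69) and Suclg2 (1.68) in PMs, and Ogdh (0.86) in AMs. The share called higher in vitro was 76.9% in MG, and in KCs (15.4%) and AMs (23.1%) it was near that of all genes. A list of 20 genes held other routes of electrons to ubiquinone together with Coq genes, which serve ubiquinone itself. Of these, 4 and 0 were called in MG, 1 and 1 in KCs, 2 and 3 in PMs and 4 and 5 in AMs. They were led by Gpd2 (-2.53) in MG, Coq9 (-0.81) and Gpd2 (1.41) in KCs, Coq10b (-2.24) and Prodh (1.495) in PMs, and Coq7 (-1.63) and Coq8a (2.01) in AMs. In vitro these are 20%, 5%, 10% and 20%, in no population above the share of all genes. Among the nucleotide and phosphate carriers, 4 of 6 were higher in vitro in MG, 3 of 7 in KCs and PMs and 4 of 6 in AMs, and 1 was higher ex vivo in KCs (Slc25a31, 5.30). The ADP/ATP carrier Slc25a4 had -1.90 in MG, -1.55 in KCs and -1.16 in PMs, and Vdac3, a channel of the outer membrane, had -1.06 in AMs.

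Of 6 tested genes listed for the response to oxygen, 4 were higher in vitro and 1 ex vivo in MG, 3 and 0 in KCs, 1 and 0 in PMs and 3 and 0 in AMs. The prolyl hydroxylase gene Egln3 had log2 fold changes of -7.26 in MG, -5.74 in KCs and -5.34 in AMs. AM-LCs were kept at atmospheric oxygen, and the part of oxygen, glucose and growth factor in these values was not tested. In PMs it was at 35.1, 33.1 and 33.5 CPM ex vivo and 13.2, 29.7 and 26.2 CPM in vitro (0.55 ± 0.32, edgeR adjusted p = 0.231), and the mitophagy receptor Bnip3 was the member called (-1.99). In MG, Vhl, which marks hypoxia-inducible factors for degradation, was higher ex vivo (1.55). These lists describe counts, and no test compared them with other genes.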

How the data were processed

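The authors prepared libraries with the SMARTer v4 and Nextera XT kits, sequenced single reads without strand information, and deposited raw counts of reads per gene for 24 libraries, 1 column each, without normalization. Per the labels, the reads were trimmed with Trimmomatic 0.36 and aligned with STAR 2.5.2b. The study's methods give other versions of both tools, and the labels list the build hg19 where the methods give mm10, and the gene identifiers of the table are those of mouse. Symbols, transcript lengths and positions came from GENCODE vM21 (GRCm38), in which 45143 identifiers had a symbol. The length and GC content of a gene were medians over its annotated coding transcripts, short ones included.

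Counts were normalized by TMM and tested in R 4.3.3 with edgeR 4.0.16 (quasi-likelihood test, two-sided, filterByExpr with a minimum count of 10, Benjamini-Hochberg adjustment over all genes tested). The 3 ex vivo and 3 in vitro libraries of a population formed 1 fit, the 12 sorted and the 12 cultured libraries 1 fit each, and all 24 libraries the interaction fit. CPM were normalized over the 24 libraries, and errors are SEs of log2 fold changes. Shared sequence was counted over all 50-base stretches of a member's transcript. A list is described by its counts and its median, beside those of all genes tested. The procedure was tested on simulated data. Alternatives were limma-voom (limma 3.58.1), DESeq2 1.42.0 for the comparisons within populations, RLE size factors, no filter, a trend on transcript length and GC content, all libraries in 1 model, the replicate number as a block, and leaving out each library.

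The members and lists were chosen with earlier results of these data known. Named were the mitochondrial genes, paralogs, complex II, core subunits, the largest called change per complex, direction and population, members called in opposite directions, members called where at most 5 were, the 3 smallest p across populations and the leading gene of each list. Ndufb6 and the genes not called in MG were named after their values were seen. Identity between paralogous proteins was not analysed here. A few named genes are not reported here.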

Additional observations from a re-analysis of the deposited data

Results flagged for a closer look

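The culture effect differed between populations for 52 members by the test of the interaction, next to 36.3% of all genes tested. Of these, 7 were called in opposite directions in different populations, a count that was not made over all genes. The mitochondrial genes mt-Nd1, mt-Nd4, mt-Nd5, mt-Nd6 and mt-Cytb were higher ex vivo in KCs and higher in vitro in AMs, with adjusted p-values of the interaction of 0.00694, 0.00743, 0.0057, 0.00929 and 0.00394 (edgeR's quasi-likelihood test). The assembly factor Ndufaf7 was higher ex vivo in MG and higher in vitro in AMs (edgeR adjusted p = 0.00589), and Cox6b2 was higher in vitro in MG and higher ex vivo in AMs (edgeR adjusted p = 0.00266).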

How the results depend on the processing

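Counts within 1.5 times of the reported ones are not listed. In 1 model of all 24 libraries, MG had 0 nuclear calls higher ex vivo and 3 mitochondrial calls higher in vitro, KCs 1 nuclear call higher ex vivo, 61 nuclear and 1 mitochondrial higher in vitro, PMs 10 nuclear higher in vitro and 4 mitochondrial higher ex vivo, and AMs 36 nuclear and 1 mitochondrial higher in vitro. With the length and GC trend removed, MG had 7 mitochondrial calls higher in vitro, KCs 59 nuclear and 1 mitochondrial higher in vitro and 1 mitochondrial higher ex vivo, PMs 1 nuclear higher ex vivo and 5 higher in vitro, AMs 8 nuclear higher ex vivo, 29 nuclear and 2 mitochondrial higher in vitro, and AM-LCs 7 members above the other cultures. That trend also turned the direction in AMs of Cox5a (0.175, edgeR adjusted p = 0.179), Ndufs1 (0.35, edgeR adjusted p = 0.0229), Uqcrc2 (0.102, edgeR adjusted p = 0.467) and Uqcrfs1 (0.373, edgeR adjusted p = 0.0207). DESeq2 gave 1 nuclear call higher ex vivo in KCs, and in PMs 6 nuclear higher in vitro and 5 mitochondrial higher ex vivo. Limma-voom gave 5 mitochondrial calls higher ex vivo in PMs, RLE size factors 1 nuclear higher in vitro in PMs, and no filter 1 nuclear higher in vitro in PMs and 5 members higher in AM-LCs. The cause of these changes was not tested.

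Over all genes, libraries with the same replicate number did not deviate together (correlations from -0.10 to 0.106, and each library was closest to its own number in 1 of 3 cases per population), so the numbers were not used to pair libraries, although the mitochondrial over nuclear ratio was highest in replicate 3 in 8 of 8 groups. With the replicate block, MG had 0 nuclear calls higher ex vivo, KCs 21 nuclear higher in vitro, PMs 1 nuclear higher in vitro and 5 mitochondrial higher ex vivo, and TRM-LCs 7 members with any difference. With the replicate block and the length and GC trend, MG had 5 mitochondrial calls higher in vitro, KCs 1 and PMs 1 mitochondrial higher ex vivo, and AMs 4 nuclear higher ex vivo, 24 nuclear and 2 mitochondrial higher in vitro, with Cox5a at 0.174 (edgeR adjusted p = 0.283) and Uqcrc2 at 0.105 (edgeR adjusted p = 0.526) turned in AMs.

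With 1 library left out, calls higher ex vivo and in vitro ranged from 0 to 2 and 58 to 77 for nuclear members in MG, from 5 to 59 in vitro in KCs, from 0 to 1 and 1 to 38 in PMs, and from 2 to 3 and 37 to 57 in AMs. For mitochondrial members they ranged from 0 to 8 in vitro in MG, from 1 to 6 ex vivo in KCs, from 0 to 7 ex vivo in PMs and from 4 to 8 in vitro in AMs. Differences among sorted cells ranged from 86 to 91 members, members higher in AMs from 31 to 74 and lower from 0 to 2, differences among TRM-LCs from 1 to 9, members higher in AM-LCs from 2 to 25, and interactions from 43 to 65. As shares of TMM-normalized CPM, mitochondrial members took 0.407% in AM-LCs and 0.0952% in MG, and nuclear members 1.54% in AM-LCs, 0.386% in MG and 1.03% in PMs.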
